A study of Mus musculus with 9 samples.

Results

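The proteasome is the barrel-shaped protease that degrades ubiquitin-tagged proteins, and its subunits are encoded by genes named Psma to Psmg. The genes described here were every row of the deposited table with a protein-coding transcript and a symbol of the form Psma, Psmb, Psmc, Psmd, Psme, Psmf or Psmg followed by a number, without the immunoproteasome subunits Psmb8, Psmb9 and Psmb10. This gave 47 of the 55385 genes in the table, of which 21804 had a protein-coding transcript. They were 8 alpha and 8 beta subunits of the 20S core, 6 ATPase and 11 non-ATPase subunits of the 19S cap, 3 chaperones of 19S assembly, 4 chaperones of 20S assembly, 5 activator genes, the inhibitor Psmf1, and Psmc3ip. Psmc3ip was named for an interaction with a cap subunit and encodes a cofactor of meiotic recombination, not a proteasome subunit.

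RNA sequencing was carried out on a wild-type mouse podocyte line, labelled MCP5, in 9 libraries. There were 3 libraries of untreated cells (control), 3 of cells given high glucose at 50 mmol/L and 3 of cells given AGEs at 400 µg/mL. AGEs are advanced glycation end products, proteins modified by reducing sugars. Neither the duration of exposure nor the glucose in the control medium is given in the sources used here, and controls for osmolarity or for unmodified carrier protein were not analysed here. Titles number the libraries, yet nothing says that each came from its own culture. The p-values therefore reflect the spread among these libraries, and that spread could be technical.

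In the 20S core, alpha rings gate the entrance and beta rings hold the proteolytic sites, which cut inside a closed chamber. The 19S cap binds ubiquitin chains, removes them, and unfolds the protein with a ring of ATPases. Other activators can open the gate without ubiquitin, and dedicated chaperones build the core and the cap before they join. Podocytes are long-lived cells that rarely divide, and turnover of damaged protein is part of their upkeep.

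Total counts ranged from 46284878 (high glucose library 2) to 77242281 per library. Of the podocyte genes, Wt1 had 0 counts except for 11 in high glucose library 2, and Nphs1 ranged from 280 to 7040 counts, with each group spanning a wide range. Podxl had 1132 to 2276 counts, and Synpo had 1202 to 1721 in untreated cells, 2575 to 6068 in high glucose and 374 to 558 with AGEs. All 15 podocyte markers listed summed to 985 to 1307, 1254 to 1327 and 1413 to 1491 CPM (counts scaled to library size, with TMM factors between libraries) in control, high glucose and AGEs. Summed over all 6 tubular markers listed, of which Slc34a1 and Umod had 0 counts in all libraries, the level was 202 to 216 CPM in untreated cells, 667 to 800 in high glucose and 177 to 282 with AGEs. The 8 parietal epithelial markers summed to 1055 to 1104, 1966 to 2205 and 1020 to 1246 CPM in the same order. The part of these shifts in the results on proteasome genes was not tested. In bulk RNA, fewer cells of a type and less RNA per cell cannot be told apart.

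Levels differed widely among the subunits. Per length (FPKM, fragments per length and library size), the 14 measured core genes in control ran from 20.8 for Psma3 to 205 for Psmb5, a ratio of 9.86. The same genes were at the ends in high glucose (27.4 and 233 FPKM) and with AGEs (22.0 and 186 FPKM). Beta subunits had a median level of 118 FPKM in control and alpha subunits 53.8 FPKM, although every core particle holds both in equal number. The 17 cap genes ran from 18.3 FPKM (Psmd11) to 153 FPKM (Psmc5) in control. Assembly chaperones sat lower, at 12.7 FPKM (Psmd9) to 30.9 FPKM (Psmg1). The activators spanned 5.93 FPKM for Psme4 to 89.8 FPKM for Psme3. The median replicate SD over the 45 genes tested was 0.09, 0.08 and 0.09 on the log2 CPM scale in control, high glucose and AGEs. Over the 8963 genes within the same range of mean CPM the median SDs were 0.12, 0.11 and 0.13. For the 7 beta genes of the core they were 0.15, 0.08 and 0.14 in the same order, above those of the genes in that CPM range in control and with AGEs.

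**Figure D1:**
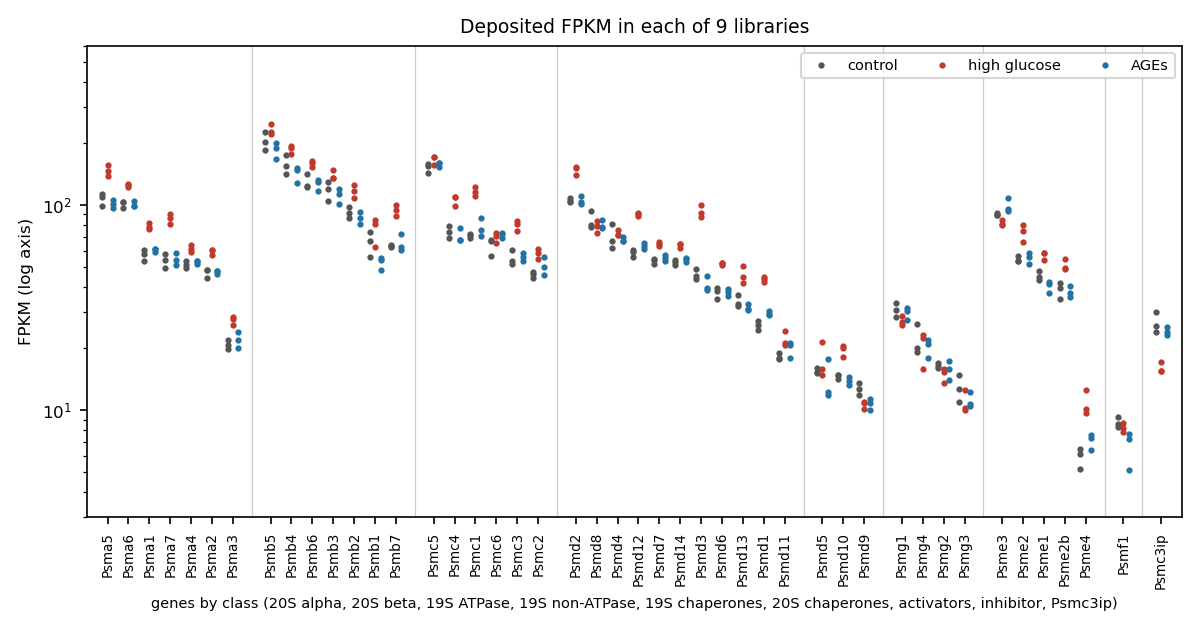
Deposited FPKM on a log axis for each of the 45 genes tested, with 1 point per library and colour by group, in classes and ordered by control level within a class. Psmb5 is the highest core gene and Psma3 the lowest in every group, and Psme4 is the lowest of the activators in every group.

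Psma8 and Psmb11 had too few counts to be tested. Psma8, the alpha subunit of the testis, had 8 counts in all, and they came from high glucose library 3. Psmb11, the beta subunit of thymic cortical epithelium, had 34 counts over 9 libraries and at most 12 in any of them. The other 45 genes were tested.

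High glucose was compared with control to ask which genes differ under excess glucose. Of the 45 genes tested, 15 rose and 7 fell, each called at an adjusted p under 0.05 by edgeR's quasi-likelihood test with Benjamini-Hochberg adjustment over all 17680 genes tested. Across all genes 19.6% were called higher and 19.7% lower (39.3% either way), beside 33.3% and 15.6% of the proteasome genes. The changes were small. The median log2 fold change of these genes was 0.12 (all genes 0.03) and their range was -0.90 to 0.84. None of them reached a 2-fold call, which 2419 of all genes did. Among called genes the median size of the log2 change was 0.36 for the proteasome genes and 0.78 for all genes. The high glucose and control libraries did not overlap for 22 genes that were higher and 7 that were lower, against 28.3% and 25.8% of all genes. Leaving out control library 3 or high glucose library 3 left 3 genes called lower.

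These counts depended on the scaling between libraries. In limma fits on the deposited log2(FPKM + 1) or log2(FPKM + 0.1), which are not TMM-scaled, 28 of the genes were called higher and 2 lower, and their median was 0.30 in each fit. The same fits moved the split of all called genes from 49.9% higher to 68.6% and 67.9%, and the median of all genes from 0.03 to 0.08 and 0.17. Read against that shift, the order of the classes was alike. In the log2(FPKM + 1) fit the medians were 0.32 for the core, 0.42 for the cap, 0.39 for the activators and -0.14 for the assembly chaperones, beside 0.15, 0.26, 0.23 and -0.32 in the TMM-scaled fit.

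**Figure D2:**
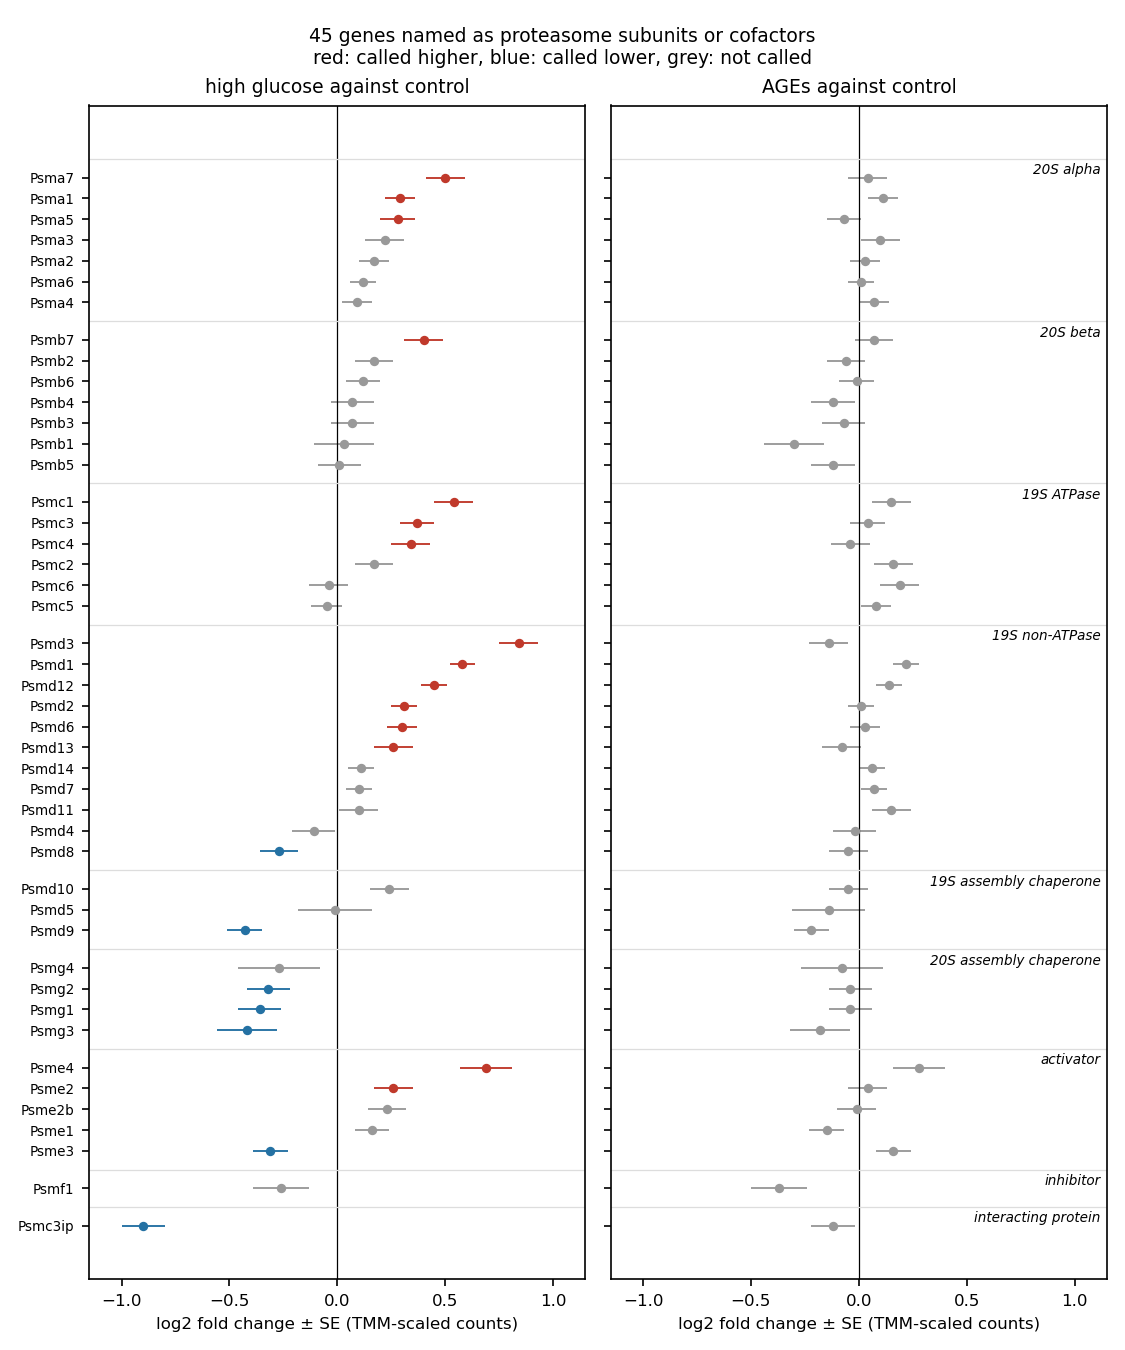
log2 fold change with its SE for each gene tested, by class, for high glucose against control (left) and AGEs against control (right), both from the edgeR fit on TMM-scaled counts. On the left 15 genes are red (called higher) and 7 blue (called lower), with Psmd3 farthest right at 0.84 and Psmc3ip farthest left at -0.90; on the right all 45 are grey.

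In the 20S core, 3 of 7 alpha genes and 1 of 7 beta genes rose in high glucose and none fell. Of the core genes 28.6% were thus called higher, beside 19.6% of all genes. All 14 fitted log2 changes lay above 0, the lowest at 0.01. Without control library 2 or without high glucose library 2, 12 of the 15 core genes then tested lay above 0. Psma7, an alpha-ring subunit, was at 193, 174 and 206 CPM in untreated cells, 276, 281 and 252 CPM in high glucose and 181, 193 and 214 CPM with AGEs. Every high glucose library was above every other library. It rose by 0.50 on the log2 scale (SE 0.09, 1.41-fold, adjusted p = 0.00174). Psma5, the alpha subunit with the highest level, was at 169, 150 and 173 CPM in untreated cells, 203, 209 and 186 CPM in high glucose and 154, 163 and 152 CPM with AGEs, again with no overlap between high glucose and the other groups. It rose 1.21-fold (adjusted p = 0.0179). Psma5 was no longer called when control library 2 (adjusted p = 0.0592), high glucose library 1 (0.0581) or high glucose library 2 (0.0702) was left out. Psma1 rose 1.22-fold (adjusted p = 0.00673). Psma2, Psma3, Psma4 and Psma6 were not called, at log2 changes of 0.17, 0.22, 0.09 and 0.12.

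Of the 3 catalytic beta genes, Psmb7 alone was called. Psmb7, the subunit with trypsin-like activity, was at 250, 244 and 255 CPM in untreated cells, 337, 347 and 306 CPM in high glucose and 239, 251 and 295 CPM with AGEs, so that high glucose stood clear of both other groups. It rose by 0.40 on the log2 scale (SE 0.09, 1.32-fold, adjusted p = 0.00535). Psmb5, the subunit with chymotrypsin-like activity, was at 213, 191 and 236 CPM in untreated cells, 214, 226 and 202 CPM in high glucose and 174, 199 and 215 CPM with AGEs, and the groups overlapped. Its log2 change in high glucose was 0.01 (SE 0.10, adjusted p = 0.974), and it was -0.06 without control library 2. Psmb6, with caspase-like activity, had a log2 change of 0.12 (adjusted p = 0.281). The structural beta genes Psmb1, Psmb2, Psmb3 and Psmb4 had log2 changes from 0.03 to 0.17 and were not called. Part of the Psmb7 counts is uncertain, since the gene overlaps Nek6 on the opposite strand. Nek6 had 16.2% as many counts and rose by 0.53.

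The immunoproteasome subunits Psmb8, Psmb9 and Psmb10 replace Psmb5, Psmb6 and Psmb7 in the core of cells exposed to interferon, and served as a comparison. Within a library the ratio of 2 genes does not depend on the scaling. The FPKM ratio of Psmb5 to Psmb8 was 31.7, 27.9 and 37.7 in untreated cells, 17.6, 15.2 and 15.7 in high glucose and 31.4, 30.2 and 35.4 with AGEs. The ratio of Psmb6 to Psmb9 was 126 ± 23.8 (SD, n = 3 libraries) in untreated cells, 77.7 ± 12.2 in high glucose and 165 ± 46.6 with AGEs. Both ratios were lower in every high glucose library than in any other library. The Psmb7 to Psmb10 ratio went the other way, from 10.7 ± 0.964 in control to 19.5 ± 1.55 in high glucose, with 12.3 ± 2.59 for AGEs. Psmb8 rose by 1.01 (log2, adjusted p = 9.35e-05) and Psmb9 by 0.80 (adjusted p = 0.0208), while Psmb10 fell by 0.47 (adjusted p = 0.0299). The Psmb10 call was lost in 8 of 15 alternatives and the Psmb9 call in 4. Psmb9 was low throughout, at 2.69 to 9.22 CPM. The FPKM levels of the constitutive subunits were above those of their counterparts in all 9 libraries.

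**Figure D3:**
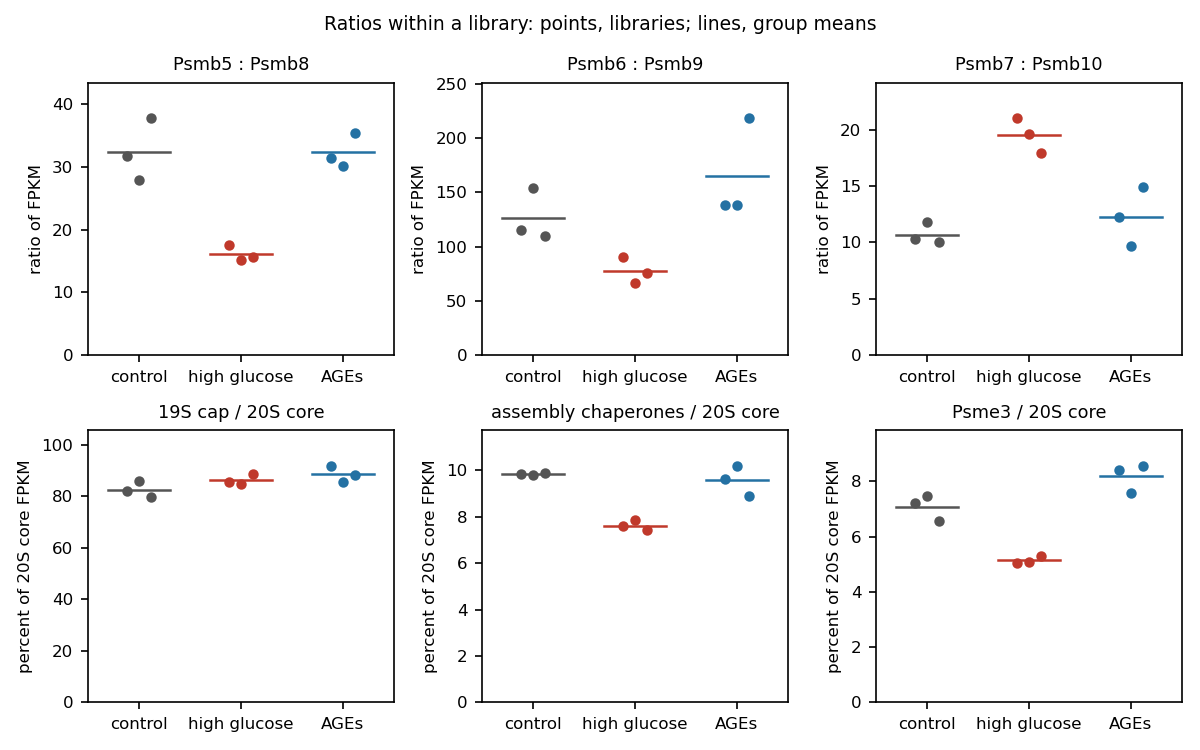
Ratios of FPKM within each library, 1 point per library with the group mean as a line, for the 3 pairs of constitutive and immunoproteasome subunits (top) and for summed class levels as a percentage of the 20S core sum (bottom). High glucose lies apart from the other groups for each pair, for the assembly chaperones and for Psme3, and overlaps them for the 19S cap.

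In the 19S cap, 9 of 17 genes rose in high glucose and 1 fell (52.9% and 5.88%, beside 19.6% and 19.7% of all genes). Among the ATPases, which thread the protein into the core, Psmc1, Psmc3 and Psmc4 rose, and Psmc2, Psmc5 and Psmc6 were not called. Psmc1 was at 159, 154 and 162 CPM in untreated cells, 233, 241 and 217 CPM in high glucose and 159, 171 and 200 CPM with AGEs. The high glucose libraries lay above all others, and the gene rose by 0.54 (SE 0.09, 1.45-fold, adjusted p = 0.00117). Psmc5, the ATPase with the highest level, was at 251, 230 and 256 CPM in untreated cells, 248, 243 and 222 CPM in high glucose and 250, 260 and 267 CPM with AGEs. Its control and high glucose libraries overlapped, with a log2 change of -0.05 (SE 0.07, adjusted p = 0.624) that was 0.12 on the FPKM scale (pseudocount 1). Psmc3 rose 1.29-fold (adjusted p = 0.00743), but overlaps Slc39a13 on the opposite strand, which had 14.4% as many counts. Psmc4 rose 1.27-fold (adjusted p = 0.0165), and its call was lost when control library 1 or 2 or high glucose library 1 or 2 was left out (adjusted p from 0.0505 to 0.0634).

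Of the 11 non-ATPase genes of the cap, 6 rose and 1 fell (54.5% and 9.09%, beside 19.6% and 19.7% of all genes). Psmd3, a scaffold subunit of the cap's lid (ENSMUSG00000017221, chr11:98682554-98695979, plus strand, GRCm38), had the largest rise of all. It was at 261, 249 and 282 CPM in untreated cells, 452, 505 and 459 CPM in high glucose and 226, 224 and 267 CPM with AGEs. The lowest high glucose library exceeded the highest of the others by a wide margin. Psmd3 rose by 0.84 on the log2 scale (SE 0.09, 1.79-fold, adjusted p = 8.68e-05), and the change was 0.79 to 1.01 over all alternatives. Psmd12, another lid subunit, rose by 0.45 (1.37-fold, adjusted p = 0.000469). Psmd3 was also higher relative to Psmd12 in every high glucose library. The FPKM of Psmd3 as a percentage of that of Psmd12 was 75.0, 74.4 and 87.3 in untreated cells, against 95.3, 111 and 103 in high glucose and 62.2, 63.1 and 68.7 with AGEs. This pair was chosen after its values were seen.

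The large base subunits Psmd1, a scaffold, and Psmd2, which docks shuttle factors, rose too. Psmd1 was at 218, 226 and 206 CPM in untreated cells, 330, 313 and 330 CPM in high glucose and 244, 248 and 265 CPM with AGEs. The 3 groups did not overlap, with AGEs between the others. It rose by 0.58 in high glucose (SE 0.06, 1.49-fold, adjusted p = 0.000111). Psmd2, the non-ATPase gene with the highest FPKM, was at 490, 481 and 506 CPM in untreated cells, 590, 621 and 625 CPM in high glucose and 473, 486 and 533 CPM with AGEs. High glucose lay above both other groups, and the rise was 1.24-fold (log2 0.31, SE 0.06, adjusted p = 0.00388). Psmd6 rose 1.23-fold (adjusted p = 0.00764).

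The remaining cap genes were less clear. Psmd13 was called higher by 0.26 (adjusted p = 0.042), but its control and high glucose libraries overlapped, the call was lost in 7 of 15 alternatives, and the gene shares its locus with Gm15542 on the same strand, which had 21.2% as many counts. Psmd8, a lid subunit, fell by 0.27 (adjusted p = 0.037) and missed the threshold in 8 alternatives. The deubiquitinating subunit Psmd14 had a log2 change of 0.11 (adjusted p = 0.174) and the ubiquitin receptor Psmd4 one of -0.11 (adjusted p = 0.399). Psmd7 and Psmd11 had 0.10 each and were not called.

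The summed level of the cap relative to the core overlapped between the groups. The cap sum as a percentage of the core sum (FPKM) was 82.1, 86.0 and 79.6 in untreated cells, 85.4, 84.9 and 88.5 in high glucose and 91.8, 85.5 and 88.3 with AGEs. The share of all counts that fell on the 47 genes was 0.753 ± 0.0272% in control (SD, n = 3 libraries), 0.963 ± 0.0345% in high glucose and 0.747 ± 0.0287% with AGEs. After TMM scaling their summed level was 7772, 7506 and 8169 CPM in untreated cells, against 8964, 9104 and 8424 CPM in high glucose and 7471, 7809 and 8294 CPM with AGEs.

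Of the 7 assembly chaperones, 4 fell in high glucose (57.1%, beside 19.7% of all genes) and none rose. In each FPKM fit, 1 chaperone was called higher and 1 lower. The difference from the other classes was not tested. Psmd9, a chaperone of the cap's ATPase ring, was at 107, 98.1 and 115 CPM in untreated cells, 83.5, 80.5 and 73.9 CPM in high glucose and 91.3, 96.4 and 86.4 CPM with AGEs. The high glucose libraries were the lowest, and Psmd9 fell by 0.43 on the log2 scale (SE 0.08, 1.34-fold, adjusted p = 0.00319), a call made in all 15 alternatives. Psmg1, which helps to build the alpha ring, was at 48.3, 43.8 and 52.2 CPM in untreated cells, 37.8, 39.3 and 35.4 CPM in high glucose and 42.8, 49.3 and 48.6 CPM with AGEs, with high glucose below both other groups. It fell by 0.36 (SE 0.10, adjusted p = 0.0154), and the call was lost without control library 3 (adjusted p = 0.0552), without high glucose library 3 (0.0585) and on the FPKM scale (0.104 and 0.107).

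Psmg3, the partner of Psmg4 in the core chaperone set, was at 42.6, 36.4 and 50.2 CPM in untreated cells, 30.9, 36.7 and 29.3 CPM in high glucose and 36.0, 41.3 and 36.4 CPM with AGEs. Control library 2 and high glucose library 2 overlapped. It fell by 0.42 (SE 0.14, adjusted p = 0.0358), and Psmg2, the partner of Psmg1, fell by 0.32 (adjusted p = 0.037). Each of these calls was lost in 9 alternatives. Psmg4 had a log2 change of -0.27 (adjusted p = 0.299). Of the other cap chaperones, Psmd10, also known as gankyrin, was at 25.2, 25.1 and 24.2 CPM in untreated cells, against 30.6, 27.0 and 30.5 CPM in high glucose and 24.8, 23.9 and 23.1 CPM with AGEs. High glucose lay above both other groups without a call (log2 change 0.24, SE 0.09, adjusted p = 0.0566). Psmd5 was at 135, 126 and 130 CPM in untreated cells, 112, 159 and 116 CPM in high glucose and 99.3, 150 and 105 CPM with AGEs. Library 2 was the highest in each treated group. Psmd5 overlaps Cutal on the opposite strand, which had 33.7% as many counts.

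The level of the chaperones was also set against the core within each library. The 7 chaperones together amounted to 9.84%, 9.82% and 9.87% of the core's FPKM in untreated cells, 7.59%, 7.85% and 7.41% in high glucose and 9.63%, 10.2% and 8.89% with AGEs. The high glucose libraries were below all 6 others. In summed FPKM the chaperones were at 125 ± 8.47 in control and 121 ± 9.44 in high glucose (SD, n = 3 libraries), with overlap, while the core was at 1270.0 ± 82.4 and 1591 ± 78.7. On the FPKM scale, the lower percentage thus came mostly from the higher core. With TMM scaling both sums moved (CPM, mean ± SD). The chaperone sum was 399.8 ± 23.5 for control libraries and 345.6 ± 33.3 for high glucose libraries, with overlap. The core sum was 3017 ± 194 and 3399 ± 200 in that order, also with overlap. How much each sum added to the lower percentage therefore depended on the scaling. For the 4 core chaperones alone the percentages were 6.46 ± 0.20 in control (SD, n = 3 libraries), 4.62 ± 0.248 in high glucose and 6.37 ± 0.296 with AGEs.

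Of the 5 activator genes, 2 rose in high glucose and 1 fell. Psme4, a single large activator of the nucleus (chr11:30771726-30880361, plus strand), was at 62.8, 59.1 and 50.5 CPM in untreated cells, 88.3, 82.5 and 107 CPM in high glucose and 73.3, 62.9 and 73.0 CPM with AGEs. In CPM the AGEs libraries lay between the groups, but AGEs library 2 (62.9) barely exceeded control library 1 (62.8). In FPKM these 2 libraries crossed (6.43 and 6.44), and AGEs against control was not called (adjusted p = 0.399). Psme4 rose by 0.69 in high glucose (SE 0.12, 1.61-fold, adjusted p = 0.00176). Psme3, the nuclear activator that forms a ring of its own, was at 312, 301 and 305 CPM in untreated cells, 247, 253 and 239 CPM in high glucose and 327, 321 and 381 CPM with AGEs. Its high glucose libraries were the lowest and its AGEs libraries the highest. Psme3 fell by 0.31 in high glucose (SE 0.08, 1.24-fold, adjusted p = 0.0089); on the FPKM scale the change was -0.14 and not called (adjusted p = 0.127 and 0.135).

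Set against the core within a library, Psme3 was at 7.22%, 7.48% and 6.57% of the core's FPKM in untreated cells, 5.04%, 5.08% and 5.30% in high glucose and 8.43%, 7.59% and 8.57% with AGEs. The core itself was higher in high glucose, at a summed FPKM of 1591 ± 78.7 against 1270.0 ± 82.4 in control (SD, n = 3 libraries), so a lower percentage does not show a fall of Psme3. Psme4 as a percentage of Psme3 was 6.60 ± 0.67 in control (SD, n = 3 libraries), 13.2 ± 2.20 in high glucose and 7.17 ± 0.633 with AGEs.

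Psme1 and Psme2 form the interferon-inducible activator ring and lie 5912 bp apart on opposite strands of chromosome 14. Psme1 was at 110, 112 and 123 CPM in untreated cells, against 134, 131 and 121 CPM in high glucose, with overlap and no call (log2 change 0.16, adjusted p = 0.131). Psme2 rose by 0.26 (adjusted p = 0.0436), a call lost in 8 alternatives. Its values are uncertain, because the longest transcripts of Psme2 and of Psme2b, on chromosome 11, were identical at 789 of 794 aligned bases (99.4%), and reads could be split between them. Psme2b had a log2 change of 0.23 (adjusted p = 0.0842).

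Psmf1, named as an inhibitor of the core, was at 61.9, 63.3 and 69.1 CPM in untreated cells, 55.1, 56.5 and 51.1 CPM in high glucose and 54.1, 57.3 and 39.2 CPM with AGEs. Both treated groups lay below control, but neither change was called (log2 -0.26, adjusted p = 0.162, and log2 -0.37, adjusted p = 0.345). Psmc3ip was at 54.1, 50.2 and 63.6 CPM in untreated cells, 29.6, 31.7 and 28.8 CPM in high glucose and 53.7, 49.2 and 52.0 CPM with AGEs. The high glucose libraries were far below the rest, and Psmc3ip fell by 0.90 (SE 0.10, 1.87-fold, adjusted p = 0.000123). It overlaps Mlx on the opposite strand, which had 92.8% as many counts and a log2 change of -0.34 (adjusted p = 0.0526). The strand setting of the counting is not given in the sources used here, so reads of the 2 genes may be mixed. Without Psmc3ip the count that fell was 6 of 44, and the median was 0.14.

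**Figure D4:**
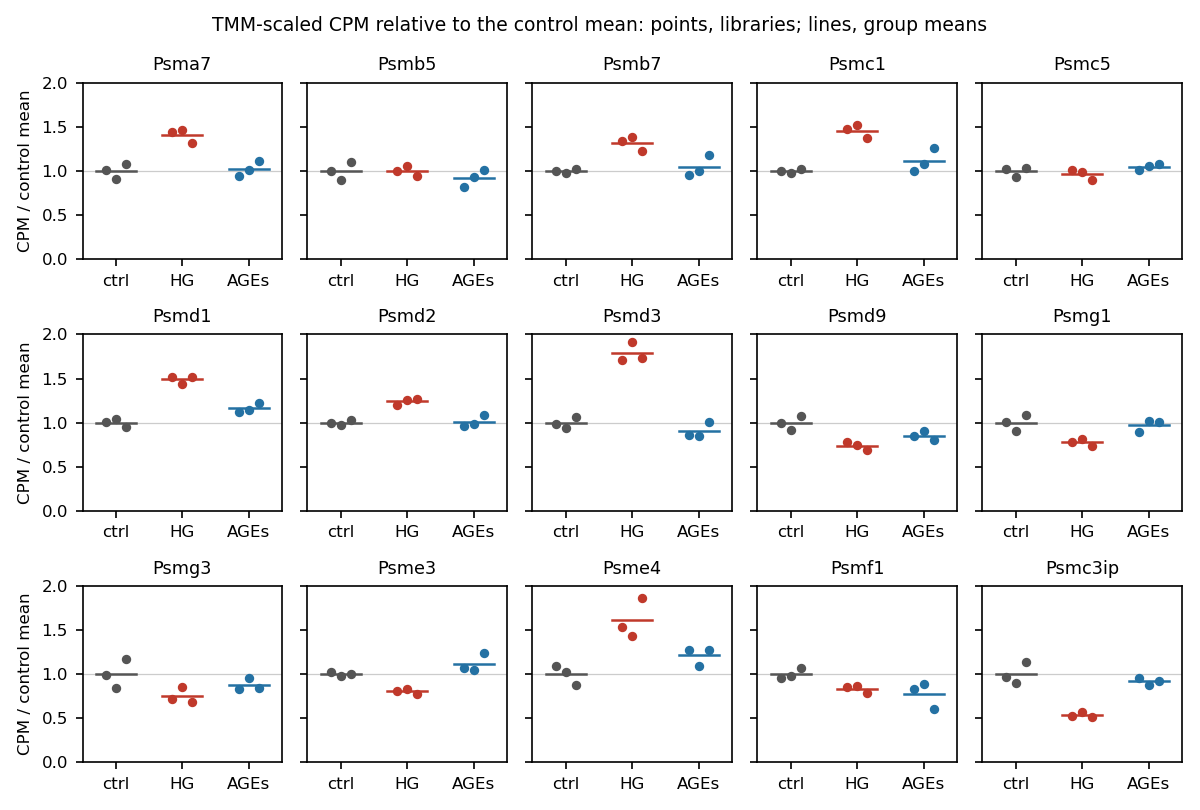
TMM-scaled CPM of 15 genes divided by the mean of the control libraries (ctrl, control; HG, high glucose), 1 point per library with group means as lines. Psmd3 in high glucose reaches the highest values, Psmc3ip in high glucose the lowest, and Psmb5 and Psmc5 stay near 1 in every group.

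AGEs were compared with control to ask which genes respond to glycated protein. None of the 45 genes was called, where 0.0848% of all genes were (0.0509% higher and 0.0339% lower, 15 genes in all). At an unadjusted p under 0.05 there were 4 proteasome genes (8.89%) and 12.4% of all genes, and DESeq2 and both limma fits also called 0 of the 45. The median log2 change was -0.01, and the range ran from -0.37 (Psmf1) to 0.28 (Psme4, SE 0.12). AGEs and control libraries did not overlap for 7 genes that were higher and 3 that were lower, against 9.47% and 9.73% of all genes. Of the 14 core genes 7 lay above 0 and 7 below, with a median of 0 after rounding, and the medians were 0.06 for the cap, -0.08 for the assembly chaperones and 0.04 for the activators.

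AGEs were also compared with high glucose directly, and this comparison shares its high glucose libraries with the first. Here 3 of 45 genes were higher with AGEs and 15 lower, beside 19.7% and 20.2% of all genes (39.9% either way), and the median log2 difference was -0.14 (all genes -0.02). The 2 groups did not overlap for 9 genes that were higher with AGEs and 19 that were lower, against 25.2% and 27.3% of all genes (52.5% either way). The FPKM fits called 2 higher and 30 lower, with 29.6% and 30.1% of all called genes higher in place of 49.4%. The 3 higher genes were Psmc3ip (0.78, adjusted p = 0.00026), Psme3 (0.48, SE 0.08, adjusted p = 0.000855) and Psmg1 (0.32, adjusted p = 0.0243, lost in 8 alternatives). Psmd3 had the largest negative difference, -0.98 (SE 0.09, adjusted p = 3.39e-05), followed by Psma7 at -0.46 (adjusted p = 0.00266). By class, 3 of 14 core genes, 9 of 17 cap genes, 1 of 7 assembly chaperones and 2 of 5 activators were lower with AGEs than in high glucose.

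Other genes of the ubiquitin-proteasome system were taken from a list of 31 measured genes. In high glucose 4 of them rose (12.9%) and 8 fell (25.8%), beside 19.6% and 19.7% of all genes, and with AGEs none was called against control. Ubb, a polyubiquitin gene, was at 2060, 2000 and 2300 CPM in untreated cells, 1280, 1290 and 1220 CPM in high glucose and 1810, 2020 and 1860 CPM with AGEs. Its high glucose libraries lay below all others, and Ubb fell by 0.75 (SE 0.07, adjusted p = 4.95e-05). The ubiquitin fusion gene Rps27a fell by 1.36 (adjusted p = 0.000151); it also encodes a ribosomal protein and has processed copies, so its counts are uncertain.

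Cofactors on the list moved both ways. Zfand2a, a stress-induced partner of the proteasome, fell by 0.79 (SE 0.06, adjusted p = 1.47e-05), from 144 ± 3.72 CPM to 83.2 ± 2.42 CPM (SD, n = 3 libraries). Fbxo7, a binding partner of Psmf1, fell by 0.67 (adjusted p = 0.000258). The shuttle factor Ubqln4 rose by 0.48 (adjusted p = 0.000344). Vcp, the unfoldase that prepares substrates, and its cofactor Nploc4 rose by 0.20 (adjusted p = 0.0281) and 0.19 (adjusted p = 0.024), while the cofactor Ufd1 fell by 0.61 (adjusted p = 0.00271).

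Subunits and maturation factors outside the naming rule were not called in high glucose. The cap subunits Adrm1 and Sem1 had log2 changes of 0.19 (adjusted p = 0.194) and 0.15 (adjusted p = 0.307). Pomp, which matures the core, was at 90.9, 96.2 and 92.9 CPM in untreated cells, 110, 109 and 96.5 CPM in high glucose and 90.3, 88.6 and 77.2 CPM with AGEs. Its groups did not overlap, but the log2 change was not called (0.17, SE 0.08, adjusted p = 0.139). The cap-bound deubiquitinases Usp14 and Uchl5 had log2 changes of -0.07 (adjusted p = 0.46) and -0.08 (adjusted p = 0.543).

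Nfe2l1 encodes the transcription factor known to switch on proteasome genes when proteasome activity is low. Its level was 475, 93.8 and 85.0 CPM in untreated cells, 79.3, 87.2 and 109 CPM in high glucose and 93.6, 102 and 115 CPM with AGEs. Control library 1 stood far above the other 8 libraries. The log2 change in high glucose was -1.25 (SE 0.57, adjusted p = 0.115), and without that library it was 0.04 (adjusted p = 0.886). Levels of the proteasome genes in control library 1 lay within the range of the other control libraries when summed (7772 CPM, between 7506 and 8169). A link between the Nfe2l1 level and this sum was not tested, and the values are from 1 library. Ngly1, an enzyme that processes the factor, fell by 0.60 (adjusted p = 0.00648), and Ddi2, the protease that cuts it, had a log2 change of -0.05 (adjusted p = 0.78).

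The core of the antioxidant response element that this factor binds, TGACNNNGC on either strand, was searched in RefSeq promoter windows (GRCm38.p6, 250 bases before to 50 after the annotated start). Of the 47 genes, 39 had a window and 6 of these held a match (15.4%), beside 14.0% of all 27025 genes with a window and 12.4% of 32851 windows. No other motif was searched. The matches nearest to a start are shown because they lie in genes with different calls in high glucose: Psme4 rose, Psmd9 fell, and Psmb5 and Psmb6 were not called. The capitals mark the match, and each line reads along the strand of the gene.
Psmb5: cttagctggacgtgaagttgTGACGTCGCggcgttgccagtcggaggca
Psmb6: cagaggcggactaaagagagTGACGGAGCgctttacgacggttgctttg
Psmd9: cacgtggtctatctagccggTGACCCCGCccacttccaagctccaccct
Psme4: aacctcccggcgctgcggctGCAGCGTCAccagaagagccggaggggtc

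The stretches lie at chr14:54618014-54618062 (minus strand), chr11:70525328-70525376, chr5:123228139-123228187 and chr11:30771748-30771796 (plus strand). Relative to the RefSeq start, the first base of the match was at -47, -9, -31 and -7 in that order, and in Psme4 the match is on the opposite strand. In Psmc6 and Psmd12 the matches began at -227 and -247. A match of these letters is a description of the sequence and does not show that the factor was bound.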

How the data were processed

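RNA was extracted with TRIzol and fragments were reverse-transcribed with SuperScript II, per the labels' protocols. One table was deposited, which gives for each gene a read count and an FPKM value in all 9 libraries, per the file headers. Counts were deposited as whole numbers without normalization. FPKM had been scaled by the authors to length and library size, with a count of 0 written as 0.0001. The submitters' processing notes name GRCm38, FastQC and cutadapt 1.9. For the aligner, the counter, the annotation release and strandedness, the setting is not given in the sources used here. The transcript type column lists several types, and a gene entered when protein_coding was among them.

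Counts were fitted with edgeR 4.0.16 (quasi-likelihood, TMM, filterByExpr by group) in R 4.3.3, with 3 group means, no covariate and 9 libraries sharing 1 estimate of the spread (common biological coefficient of variation 0.278). Of 55385 genes, 17680 were tested. Tests were two-sided, with Benjamini-Hochberg adjustment over all genes tested and calls at an adjusted p under 0.05. The SE is the log2 fold change over the root of its F statistic. Replicate libraries differed by more than sampling noise (chi-square per degree of freedom 47.7 to 110), so none was counted as a copy. Low counts fall unevenly on whole numbers, so a fragment may count more than 1 time. The script was tested on simulated counts. Alternatives used DESeq2 1.42.0, limma 3.58.1 on log2(FPKM + 1) or log2(FPKM + 0.1), other scalings and filters, a replicate block, and leaving out each library. Promoter sequences are from RefSeq tables for GRCm38.p6. Transcripts of GENCODE mouse release M21 were used for length, base composition and the alignment of Psme2 with Psme2b.

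The genes, the classes and the lists were chosen with earlier results of these data known. Values for every library are given, in each class, for the gene with the highest mean FPKM and the called gene with the smallest p in high glucose, for the 4 largest called rises and falls in high glucose, and for the 2 largest called changes each way between AGEs and high glucose. From the list of other genes, Nfe2l1, Pomp, Adrm1, Sem1, Usp14, Uchl5 and Ubb were named always, with up to 4 called genes of smallest p; further genes were named after their values were seen. The symbols Paaf1 and Psme3ip1 were not found in the table and are not analysed here. Some genes of the lists are not reported here.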

Additional observations from a re-analysis of the deposited data

How the results depend on the processing

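Of the 22 calls in high glucose against control, 13 were made under all 15 alternatives, 9 were lost under at least 1 and none changed direction; between AGEs and high glucose 11 of 18 were made under all and 7 were lost under some. The number called lower in high glucose was 7, with 4 under upper-quartile scaling, 2 in each FPKM fit (limma) and 3 to 6 when 1 library was left out. The number called higher was 15, with 28 in each FPKM fit and 11 to 15 when 1 library was left out. The median was 0.12, with 0.30 in each FPKM fit and 0.11 to 0.18 when 1 library was left out. Between AGEs and high glucose, 15 genes were lower, with 30 in each FPKM fit and 11 to 16 when 1 library was left out, and the median was -0.14, with -0.33 in each FPKM fit. FPKM fits differ from the edgeR fit in scaling and in the test, and the cause was not tested. Over all genes, AGEs against control gave 15 calls, with 5 under the replicate block, 268 with DESeq2 and 10 to 21 when 1 library was left out; none was a proteasome gene.

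Over all genes tested, deviations from the group means correlated at -0.067 to 0.084 between same-numbered libraries. Between differently numbered libraries the correlations were -0.069 to 0.074. With 3 libraries in a group, these values cannot show whether same-numbered libraries shared a culture or a batch. The replicate block gave 13 calls upward and 6 downward in high glucose.

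Signs changed for genes that were not called. When 1 library was left out, Nfe2l1 ran from -1.63 to 0.04 (without control library 1) and Psmb5 from -0.06 (without control library 2) through -0.04 (without high glucose library 2) to 0.08. In the FPKM fits with pseudocounts of 1 and 0.1, Psmc5 went to 0.12 and 0.13, Uchl5 to 0.09 in each, and Usp14 to 0.10 in each. Psma8 and Psmb11 had too few counts for a comparison at this depth.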

Other observations

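Genes lying close to the proteasome genes were looked at after the values were seen. Within 10000 bp and without overlap, 34 of the 45 genes had 49 measured neighbours (leaving out the proteasome genes and gene models with a Gm symbol), and 21 of these (42.9%) were called in high glucose against control, beside 39.3% of all genes. Psmd3, with the largest rise, lies 5283 bp before Csf3, the gene for granulocyte colony-stimulating factor, on the same strand. Csf3 counts were 8, 4 and 4 (control), 475, 232 and 401 (high glucose) and 42, 314 and 150 (AGEs), and its log2 change in high glucose was 5.91 (SE 0.72, adjusted p = 0.000201). With AGEs, Csf3 was above control in every library while Psmd3 was not (226, 224 and 267 CPM against 261, 249 and 282). Gsdma, 4845 bp on the other side of Psmd3, rose by 1.32 (adjusted p = 0.0309). Med24, 8611 bp from Psmd3 on the Csf3 side, had a log2 change of 0.11 (adjusted p = 0.241).

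For 5 proteasome genes a measured neighbour faces away on the opposite strand across a gap of 31 to 136 bp, a limit set after the values were seen. Of these neighbours, Dnajc2, Ftsj3 and Mrpl32 were called lower and none was called higher. Across all genes 19.6% were called higher and 19.7% lower, and 5 genes are too few to set against those shares. Farther out, Atg4a (178 bp from Psmd10) and Cep76 (262 bp from Psmg2) had log2 changes of -0.34 and 0.13 (adjusted p = 0.126 and 0.501). Rnf31, 594 bp from Psme2, fell by 0.29 (adjusted p = 0.0465). Dnajc2, 31 bp from Psmc2, fell by 0.55 (adjusted p = 0.00224) where Psmc2 had a log2 change of 0.17. Ftsj3, 74 bp from Psmc5, fell by 0.49 (adjusted p = 0.000374) where Psmc5 had -0.05. Mrpl32, 74 bp from Psma2, fell by 0.55 (adjusted p = 0.0332) where Psma2 had 0.17. Ss18l1, 98 bp from Psma7, had 0.07 (adjusted p = 0.781) where Psma7 rose by 0.50, and Tbp, 136 bp from Psmb1, had -0.20 (adjusted p = 0.129) where Psmb1 had 0.03.

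Of the 47 genes, 10 lie on chromosome 11, 6 on chromosome 14 and 6 on chromosome 2. Over the 45 genes tested, Spearman's rho of the log2 change in high glucose was 0.14 with transcript length, -0.08 with GC content and 0.23 with level, and over all genes 0.12, 0.09 and -0.18; genes are not independent replicates, and this is a description.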
